A study of Mus musculus with 12 samples.

Results

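The BCL2 family decides whether a cell lives or dies at its mitochondria, and 10 of its genes were followed here as a set chosen by name. They were the rows for Bcl2, Bcl2l1, Mcl1, Bcl2a1d, Bcl2l11, Bbc3, Pmaip1, Bid, Bax and Bak1 among the 26629 rows of the deposited FPM table, and all 10 were found there and passed the filter on low counts in every comparison. FPM is a gene's count scaled by the total gene count of its library, the same unit as CPM. Mouse T cells of the C57BL/6 strain had been sorted into 4 groups, with 3 libraries in each and, per the design text, 40000 cells sorted for each. KO CD8aa spleen cells and control CD8aa IELs (intraepithelial lymphocytes, the T cells of the gut lining) were sorted as CD45+TCRb+CD4-CD8a+CD8b- cells, from Cd4 Cre+ Lrf fl/fl mice and from Cd4 Cre- Lrf fl/fl mice. KO IELp and control IELp, the thymic precursors of IELs, were TCRb+ cells without CD4 or CD8a that carried CD122, H-2Kb, high CD5 and high PD-1 but no CD44, again from mice with and without Cd4 Cre. All mice had floxed Lrf alleles; Cd4 Cre is switched on in developing thymocytes, so that LRF, a zinc finger repressor encoded by Zbtb7a, is deleted in T cells only after that point. No age is given in the sources used here, and KO IELs and control CD8aa spleen cells were not analysed here.

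Family members fall into classes by role. Bcl2, Bcl2l1 (which encodes BCL-xL), Mcl1 and Bcl2a1d (A1) hold cells alive by binding their killing relatives. Bcl2l11 (BIM), Bbc3 (PUMA), Pmaip1 (NOXA) and Bid are BH3-only genes, whose products sense stress or lost survival signals and neutralise the protectors, and Bax and Bak1 encode the proteins that then open the outer mitochondrial membrane. In the thymus BIM is known as a main killer of cells that receive strong self-antigen signals, the kind of signal that also selects IEL precursors. In the GENCODE M21 annotation of GRCm38 all 10 are protein-coding genes, with Bcl2 on chromosome 1, Bcl2l1 and Bcl2l11 on 2, Mcl1 on 3, Bid on 6, Bbc3 and Bax on 7, Bcl2a1d on 9, Bak1 on 17 and Pmaip1 on 18. For CD8aa IELs, survival is known to depend on the cytokine IL-15, which acts through CD122 and maintains BCL2.

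Each library held between 13432598 and 19947734 counts over genes. Zbtb7a was at 61.4, 59.1 and 63.4 FPM in KO CD8aa spleen cells, against 114, 119 and 101 FPM in control CD8aa IELs, and at 50.8, 43.8 and 42.0 FPM in KO IELp, against 77.0, 68.5 and 80.7 FPM in control IELp. It was lower in both KO groups, with edgeR adjusted p = 4.16e-06 and 0.000156, and no library of a KO group overlapped its control group (2-sided exact permutation p = 0.1 for each, the smallest that 3 against 3 libraries allow). All 6 T cell markers were present in every group. Cd8b1 averaged 3.54 FPM in KO CD8aa spleen cells and 0.278 FPM in control CD8aa IELs, and Cd4 averaged 5.12 and 0.254 FPM, which is low beside Cd8a at 838 and 2508 FPM. One library stood apart: in control CD8aa IEL replicate 3 the gut epithelial keratin Krt19 reached 22.0 FPM, against 0.369 and 0.129 FPM in the other 2 IEL libraries. All 11 gut epithelial markers had counts in the IELs. Cdh1, at 369, 421 and 400.3 FPM, and Epcam, at 123, 127 and 189 FPM, made up most of their sum of 519 to 707 FPM. The other 9 summed to 27.6, 25.2 and 117 FPM in IEL replicates 1, 2 and 3, against 4.18 to 5.11 FPM in KO CD8aa spleen cells and 8.10 to 8.39 FPM in control IELp. Comparisons between groups with IELs are therefore also given without that library for Bcl2, Bcl2l1, Mcl1, Bcl2a1d, Pmaip1 and Bid. The sum of 7 B cell markers was 89.3 to 111 FPM in KO CD8aa spleen cells and 34.5 to 61.3 FPM in control IELs, where Cd79b alone averaged 44.5 FPM. Of 10 myeloid markers 9 were tested between these groups, and 7 were higher and 2 lower in spleen cells. Lyz2 averaged 12.3 FPM in spleen cells and 0.0724 FPM in IELs, Itgam 0.678 and 29.3 FPM, and Adgre1, C1qa, C1qb, Cd14 and Spi1 had no counts in the IELs. The myeloid sum was 55.2 to 84.6 FPM in spleen cells, 59.7 to 63.6 FPM in IELs, 22.9 to 26.2 FPM in KO IELp and 19.3 to 25.7 FPM in control IELp, and the B cell sum was 17.7 to 21.1 FPM in KO IELp and 22.2 to 23.0 FPM in control IELp. The part of such cells in the results was not tested.

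Bcl2a1d had the largest log2 fold changes of the 10 genes in all 4 comparisons between groups. It lies on the minus strand of chromosome 9 (88723285 to 88731914 in GENCODE M21 on GRCm38, the same assembly as mm10), with the near-identical copies Bcl2a1a and Bcl2a1b further along the chromosome on the plus strand. The windows around their start sites are shown because they let the copies be compared base by base; most of each window lies before the annotated start and is not part of the transcript. Each window below holds 300 bases from RefSeq on GRCm38.p6, 5′ to 3′ on the strand of the gene. In the Bcl2a1a and Bcl2a1b lines capitals mark bases that differ from, or are missing in, the aligned Bcl2a1d window.
Bcl2a1d (chr9:88731801-88732100, minus strand): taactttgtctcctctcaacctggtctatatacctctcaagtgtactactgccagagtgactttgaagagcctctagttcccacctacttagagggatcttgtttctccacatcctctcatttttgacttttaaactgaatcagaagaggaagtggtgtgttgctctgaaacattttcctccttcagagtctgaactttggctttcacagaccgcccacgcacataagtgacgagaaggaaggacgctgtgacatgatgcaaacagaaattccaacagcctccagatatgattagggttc
Bcl2a1a (chr9:88956670-88956969, plus strand): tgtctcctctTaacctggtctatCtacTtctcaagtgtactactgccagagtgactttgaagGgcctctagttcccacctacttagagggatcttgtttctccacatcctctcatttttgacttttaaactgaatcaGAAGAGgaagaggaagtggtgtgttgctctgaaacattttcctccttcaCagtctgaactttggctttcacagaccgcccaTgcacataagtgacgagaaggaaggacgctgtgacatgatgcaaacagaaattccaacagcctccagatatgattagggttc
Bcl2a1b (chr9:89199023-89199322, plus strand): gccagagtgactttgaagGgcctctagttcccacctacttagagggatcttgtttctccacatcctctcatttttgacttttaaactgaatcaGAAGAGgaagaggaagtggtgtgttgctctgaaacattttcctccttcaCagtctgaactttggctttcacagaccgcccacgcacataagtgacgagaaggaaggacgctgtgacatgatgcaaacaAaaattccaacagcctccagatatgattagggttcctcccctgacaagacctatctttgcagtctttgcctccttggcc

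Over the aligned bases the Bcl2a1a window matched that of Bcl2a1d at 98.0% of 294 positions, with 6 substitutions, and the Bcl2a1b window at 98.8% of 250 positions, with 3 substitutions. Both hold the same 6 bases that Bcl2a1d lacks. The letters GGAAGT, the core that ETS factors bind, were found once in each of the 3 windows on either strand, and in 23.8% of all 32851 windows of that length. TGTGGT, a core that RUNX factors bind, was not found in these windows, and was found in 16.8% of all windows. Among the GENCODE transcripts, 67.3% of the 788 stretches of 76 bases in Bcl2a1d occurred unchanged in another Bcl2a1 transcript. Reads from such stretches have no unique place, so counts of the single copies are low and uncertain, and the split between the copies is not firm.

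A1 transcripts were concentrated in control CD8aa IELs. Bcl2a1d stood at 3.26, 1.22 and 2.68 FPM in KO CD8aa spleen cells and at 34.8, 33.2 and 35.0 FPM in control CD8aa IELs. It was at 0.858, 0.241 and 0.422 FPM in KO IELp and at 1.57, 2.53 and 1.69 FPM in control IELp. The IEL libraries lay far above all 9 others, while spleen cells and control IELp overlapped. Bcl2a1d was 15.7-fold lower in KO CD8aa spleen cells than in control IELs (-3.97 on the log2 scale, SE 0.25, edgeR adjusted p = 5.56e-07), and 20.5-fold higher in control IELs than in control IELp (log2 fold change 4.36, SE 0.18, edgeR adjusted p = 5.08e-09). Both differences were as large without IEL replicate 3 (log2 fold changes -3.95 and 4.35). Bcl2a1d fell in KO IELp (log2 fold change -1.92, SE 0.47, edgeR adjusted p = 0.0133), but it had only 13, 4 and 8 counts in the KO libraries and 23, 43 and 23 counts in the control libraries. That call was lost in 3 of the 6 fits that left out 1 library, those without control IELp replicate 2, KO IELp replicate 2 or KO IELp replicate 3 (edgeR adjusted p of 0.0677 to 0.0881). The sum of Bcl2a1d, Bcl2a1a and Bcl2a1b also leaves out reads from stretches that the copies share. It averaged 3.43 ± 0.718 FPM in KO CD8aa spleen cells and 37.6 ± 0.507 FPM in control IELs (SD, n = 3 each). In KO IELp the sum averaged 0.611 ± 0.396 FPM and in control IELp 2.15 ± 0.538 FPM (SD, n = 3 each). A1 is abundant in neutrophils and mast cells. The 8 markers of those cells summed to 1.23 to 3.42 FPM in control IELs, where S100a8, S100a9, Csf3r, Retnlg, Cxcr2 and Ms4a2 had no counts, and to 4.62 to 6.82 FPM in KO CD8aa spleen cells.

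**Figure D1:**
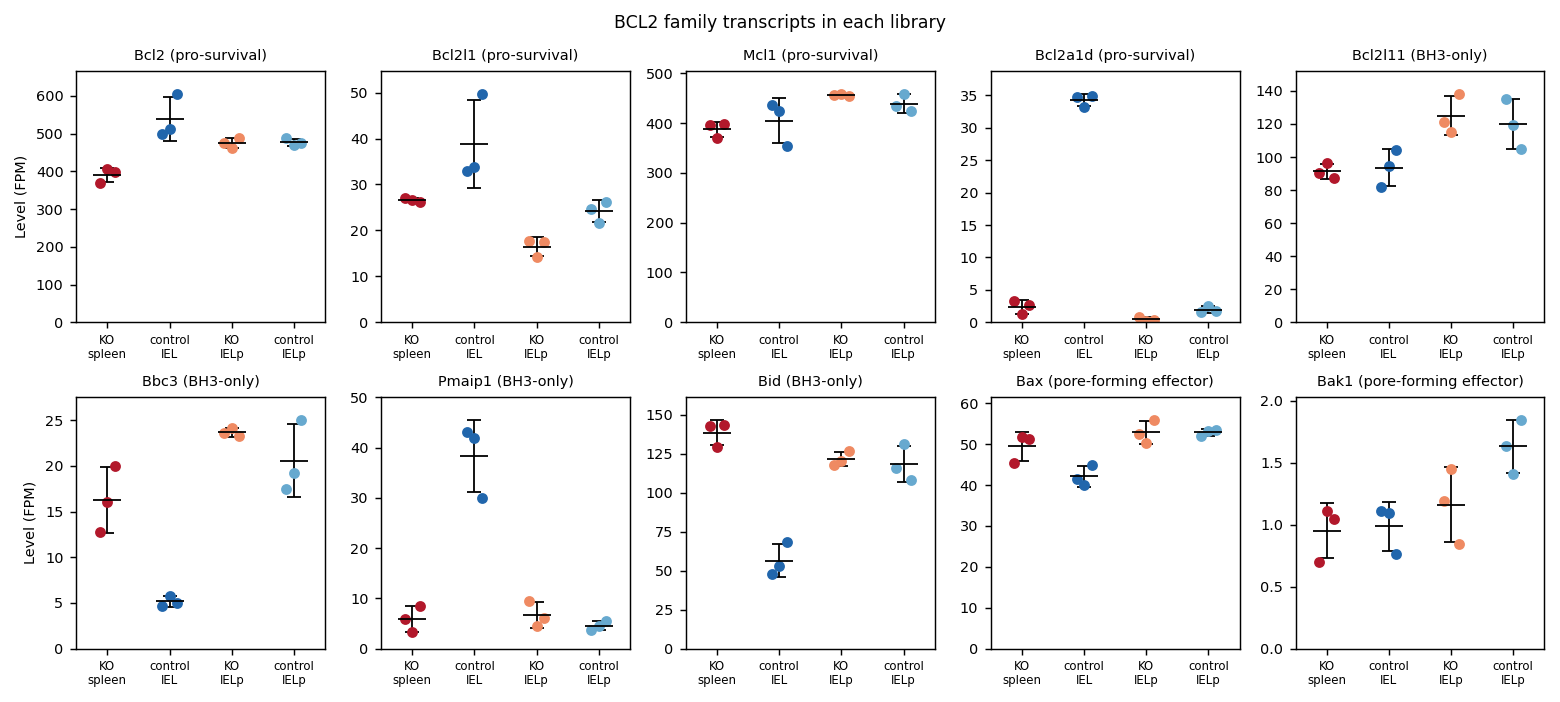
Level in FPM (vertical axis, from 0) of the 10 genes in each of the 12 libraries. Points are libraries, and the bar and whiskers are the mean ± SD of 3. Bcl2a1d and Pmaip1 are high in control IELs alone (33.2 to 35.0 and 30.0 to 43.1 FPM), and Bbc3 and Bid are lowest there.

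Bcl2 itself differed by at most 1.5-fold in the comparisons between groups. It was at 368, 405 and 397 FPM in KO CD8aa spleen cells, at 498, 512 and 606 FPM in control CD8aa IELs, at 475, 461 and 489 FPM in KO IELp and at 488, 470 and 474 FPM in control IELp. The IEL libraries were the highest and the spleen libraries the lowest, and the 2 groups of precursors overlapped. In KO CD8aa spleen cells Bcl2 fell 1.5-fold below control IELs (log2 fold change -0.59, SE 0.08, edgeR adjusted p = 0.000132). It rose 1.32-fold in control IELs over control IELp (log2 fold change 0.41, SE 0.08, edgeR adjusted p = 0.000815). That rise rested on the scaling of the libraries. With total gene counts alone it was 0.17 on the log2 scale (edgeR adjusted p = 0.0681), since that scaling moved the median of all genes by -0.24 in this comparison. Without IEL replicate 3 the log2 fold change was 0.31 for IELs over control IELp and -0.48 for spleen cells against IELs (edgeR adjusted p = 0.00023 and 2.72e-05). In KO CD8aa spleen cells against KO IELp Bcl2 fell by 0.17 on the log2 scale (SE 0.05, edgeR adjusted p = 0.00983), and this call was lost without spleen replicate 1 (adjusted p = 0.0566). Between KO and control IELp the log2 fold change was 0.02, with an interval of 2 SE on each side from -0.08 to 0.11 (edgeR adjusted p = 0.874).

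Mcl1 encodes a short-lived protector that T cells need at most stages. It was at 396, 371 and 397 FPM in KO CD8aa spleen cells, at 437, 424 and 353 FPM in control IELs, at 457, 459 and 454 FPM in KO IELp and at 435, 459 and 424 FPM in control IELp. Every group overlapped its neighbour in this order of means. The log2 fold change was 0.08 in KO over control IELp (interval -0.02 to 0.17, edgeR adjusted p = 0.326). In KO CD8aa spleen cells it fell by 0.12 on the log2 scale below KO IELp (SE 0.04, edgeR adjusted p = 0.0317), and this call was lost in 4 of the 6 fits that left out 1 library, those without spleen replicate 2 or any 1 of the 3 KO IELp libraries (adjusted p of 0.0586 to 0.139), and in the fit of all 12 libraries (0.155). Against control IELs the log2 fold change in KO CD8aa spleen cells was -0.18 (SE 0.08, edgeR adjusted p = 0.0814), and it passed the threshold without IEL replicate 3 (-0.26, adjusted p = 0.00135), with no filter (0.0412) and in the fit of all 12 libraries (0.0216). In control IELs over control IELp it was 0.11 (SE 0.08, edgeR adjusted p = 0.258), turned to -0.12 with total gene counts and reached 0.20 without IEL replicate 3 (adjusted p = 0.00818).

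BCL-xL transcripts changed in all 4 comparisons. Bcl2l1 stood at 27.1, 26.7 and 26.1 FPM in KO CD8aa spleen cells, at 32.9, 33.7 and 49.8 FPM in control IELs, at 17.7, 14.1 and 17.6 FPM in KO IELp and at 24.6, 21.6 and 26.3 FPM in control IELp. The KO IELp libraries were the lowest, and replicate 3 of the IELs was the highest. In KO IELp it fell 1.44-fold below control IELp (log2 fold change -0.53, SE 0.13, edgeR adjusted p = 0.0135), a call that was lost without KO IELp replicate 2 (adjusted p = 0.0752). In both CD8aa groups it rose over the precursors of the same genotype, by a log2 fold change of 0.81 in KO CD8aa spleen cells over KO IELp (SE 0.12, with edgeR adjusted p = 0.000113) and by 0.92 in control IELs over control IELp (SE 0.16, edgeR adjusted p = 0.000557). In KO CD8aa spleen cells it fell below control IELs (log2 fold change -0.67, SE 0.16, edgeR adjusted p = 0.00436). Without IEL replicate 3, the library with the most epithelial transcripts, these values were 0.70 for IELs over IELp and -0.43 for spleen cells against IELs (adjusted p = 0.000251 and 0.00482). Libraries of sorted cells give the mean over all cells, so fewer cells that express a gene and less transcript in each cell cannot be told apart here.

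Among the BH3-only genes, Pmaip1 behaved much as Bcl2a1d did in control IELs. Pmaip1, which encodes NOXA, the binding partner of MCL1 and A1, was at 5.87, 3.39 and 8.41 FPM in KO CD8aa spleen cells and at 43.1, 41.9 and 30.0 FPM in control IELs. In KO IELp it was at 9.44, 4.40 and 6.06 FPM, and in control IELp at 3.68, 4.53 and 5.45 FPM. No IEL library overlapped another group, and the other 3 groups overlapped each other. It was 7.21-fold lower in KO CD8aa spleen cells than in control IELs (-2.85 on the log2 scale, SE 0.27, edgeR adjusted p = 1.05e-05), and 9.88-fold higher in control IELs than in control IELp (log2 fold change 3.30, SE 0.19, edgeR adjusted p = 8.9e-08). Without IEL replicate 3 these log2 fold changes were -2.99 and 3.46 (edgeR adjusted p = 2.74e-06 and 3.99e-10). Between KO and control IELp the log2 fold change of Pmaip1 was 0.56 (interval 0.03 to 1.09), and this missed the threshold (edgeR adjusted p = 0.197).

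Bbc3 and Bid went the other way in IELs. Bbc3, which encodes PUMA, a target of p53 and of FOXO factors, was at 12.7, 16.0 and 20.0 FPM in KO CD8aa spleen cells and at 4.67, 5.79 and 5.00 FPM in control IELs. It was at 23.6, 24.1 and 23.3 FPM in KO IELp and at 17.5, 19.2 and 25.0 FPM in control IELp. The IEL libraries were the lowest without overlap. It rose 2.89-fold in KO CD8aa spleen cells over control IELs (1.53 on the log2 scale, SE 0.20, edgeR adjusted p = 9.11e-05), and fell 3.40-fold in control IELs below control IELp (log2 fold change -1.77, SE 0.18, edgeR adjusted p = 8.66e-06). It also fell in KO CD8aa spleen cells below KO IELp (log2 fold change -0.44, SE 0.15, edgeR adjusted p = 0.0287), a call lost in 5 of the 6 fits that left out 1 library, all but the one without spleen replicate 3 (adjusted p of 0.0621 to 0.112). Bid encodes a protein that caspase-8 and granzyme B cleave into its active form. It was at 143, 129 and 144 FPM in KO CD8aa spleen cells, at 47.9, 53.1 and 68.1 FPM in control IELs, at 118, 120.5 and 127 FPM in KO IELp and at 116, 131 and 108 FPM in control IELp. Again the 3 IEL libraries lay below the other 9. Bid rose in KO CD8aa spleen cells over control IELs (1.17 on the log2 scale, SE 0.12, edgeR adjusted p = 1.93e-05), as well as over KO IELp (0.30, SE 0.06, edgeR adjusted p = 0.0017), and fell in control IELs below control IELp (-0.84, SE 0.13, edgeR adjusted p = 0.00017). Without IEL replicate 3 Bid was 1.34 for spleen cells over IELs and -1.0 for IELs against IELp (edgeR adjusted p = 2.89e-07 and 1.22e-06).

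BIM transcripts were lower in the spleen cells than in precursors of the same genotype. Bcl2l11 was at 90.5, 96.4 and 87.3 FPM in KO CD8aa spleen cells, at 81.8, 94.3 and 104 FPM in control IELs, at 121, 115 and 138 FPM in KO IELp and at 135, 120 and 105 FPM in control IELp. Both precursor groups lay above both CD8aa groups, by a narrow margin between control IELp and IELs. It fell in KO CD8aa spleen cells below KO IELp (log2 fold change -0.34, SE 0.08, edgeR adjusted p = 0.00282). In control IELs against control IELp the log2 fold change was -0.13 (SE 0.11, edgeR adjusted p = 0.336), and -0.36 with total gene counts (adjusted p = 0.0153). Between KO and control IELp it was 0.08 (interval -0.10 to 0.27, edgeR adjusted p = 0.625).

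The pore-forming effectors passed the test in none of the comparisons. Bax was at 45.3, 51.7 and 51.4 FPM in KO CD8aa spleen cells, at 41.4, 39.9 and 45.0 FPM in control IELs, at 52.4, 50.2 and 56.0 FPM in KO IELp and at 52.0, 53.2 and 53.5 FPM in control IELp. Its log2 fold change was 0.02 in KO over control IELp (interval -0.14 to 0.19) and -0.10 in control IELs over control IELp (interval -0.28 to 0.08, edgeR adjusted p = 0.35). The IELs were the lowest group in FPM, and with total gene counts in place of edgeR's scaling Bax was lower in them (log2 fold change -0.33, edgeR adjusted p = 0.00743). Bak1 stayed at 0.702 to 1.84 FPM in all 12 libraries, with 14 to 25 counts in each. In KO over control IELp its log2 fold change was -0.47, with a wide interval from -1.21 to 0.27 (edgeR adjusted p = 0.474).

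**Figure D2:**
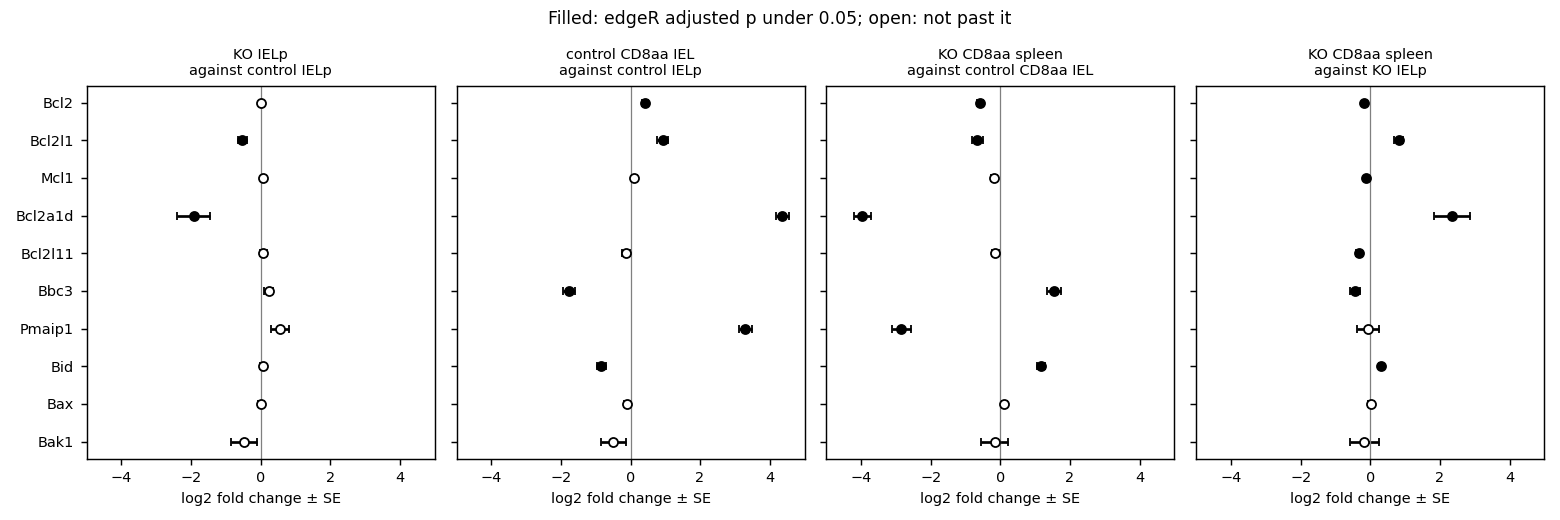
log2 fold change ± SE (horizontal axis) of the 10 genes in the 4 comparisons, from edgeR on the 6 libraries of each pair of groups; filled points had an adjusted p under 0.05. In KO against control IELp 2 points are filled, and in the 2 comparisons with control IELs Bcl2a1d and Pmaip1 lie farthest out.

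The question of the first comparison was what loss of LRF does in IEL precursors, where sort and tissue were shared. KO mice carried Cd4 Cre and control mice did not, so Cre itself and loss of LRF cannot be told apart. Of the 10 genes, 0 rose and 2 fell in KO IELp, the protectors Bcl2l1 and Bcl2a1d. All genes tested gave 13.1% called in either direction and 6.58% called lower. Without KO IELp replicate 2 neither of these 2 calls held (edgeR adjusted p = 0.0752 for Bcl2l1 and 0.0754 for Bcl2a1d). The median log2 fold change of the 10 was 0.04, against -0.01 over all 14629 genes tested. Bcl2, Mcl1, Bcl2l11, Bax and Bid had intervals within 0.27 of zero on the log2 scale. In the death receptor arm 4 of 10 genes fell and 0 rose, with a median of -0.27. They were the receptor Fas, at 25.9, 27.5 and 27.7 FPM in KO IELp against 33.5, 37.0 and 33.0 FPM in control IELp (edgeR adjusted p = 0.041), the adaptor Tradd, at 57.1 ± 1.88 against 76.4 ± 4.48 FPM (edgeR adjusted p = 0.00403), and Ripk3 and Mlkl, which act in necroptosis (edgeR adjusted p = 0.0492 and 0.00691). The calls on Tradd and Mlkl held in every alternative run. Mlkl was low, at 1.55 ± 0.408 FPM in KO IELp and 4.11 ± 0.977 FPM in control IELp, under the 5 FPM set for named genes. Calls on Fas and Ripk3 were each lost in 5 of the 6 fits that left out 1 library, with adjusted p of up to 0.214 and 0.163 over all alternatives. Of 19 apoptosome and caspase genes 1 passed, Vdac1, a channel of the outer mitochondrial membrane that rose (log2 fold change 0.22, edgeR adjusted p = 0.0361), a call lost with total gene counts and in 5 of the 6 fits that left out 1 library. Among 6 receptors for survival cytokines Il4ra and Il21r fell, with Il4ra at 67.7 ± 10.2 FPM in KO IELp against 117 ± 3.80 FPM in control IELp (-0.76 on the log2 scale, SE 0.09, edgeR adjusted p = 7.3e-05). Il2rb, on whose product the cells were sorted, was at 3069 ± 114 and 3033 ± 50.4 FPM. Of 23 tested genes that control transcription or turnover of the family, 4 rose, among them Foxo1, an activator of Bcl2l11 and Bbc3 (396 ± 11.8 FPM against 342 ± 13.3, edgeR adjusted p = 0.00556), and 2 fell, Rel and Usp9x. REL drives Bcl2a1 and Bcl2l1 in activated lymphocytes, and Usp9x encodes the enzyme that removes ubiquitin from MCL1 (86.7 ± 4.93 FPM against 109 ± 8.77, edgeR adjusted p = 0.0176). Of the fits that left out 1 library, the call on Rel was lost in all 6 and that on Usp9x in 4 of 6, with adjusted p of up to 0.165 and 0.261 over all alternatives. The part of Foxo1, Rel or Usp9x in the levels of the 10 genes was not tested.

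Control IELs were set against control IELp, cells of 1 genotype that differ in stage and tissue together. Bcl2, Bcl2l1, Bcl2a1d and Pmaip1 rose and Bbc3 and Bid fell, so that 4 of 10 were higher and 2 lower, beside 31.9% and 32.9% of all 14878 genes tested and 64.8% called in either direction. The share of members called was thus near the background. With total gene counts, or with limma on log2(FPM + 1), 4 members were lower, with Bax and Bcl2l11 added, and 3 were higher, with Bcl2 lost. Of all 14878 genes, total gene counts gave 6435 lower and 3381 higher, and limma 6545 lower and 3478 higher. Apoptosome and caspase genes split into 7 higher and 6 lower of 19, and 6 higher and 9 lower with total gene counts. Htra2, a mitochondrial protease released in apoptosis, was at 168 ± 6.45 FPM in IELs against 75.2 ± 3.47 FPM in IELp (log2 fold change 1.39, SE 0.07, edgeR adjusted p = 3.52e-08), Birc2, an inhibitor of cell death, at 189 ± 10.8 against 112 ± 4.98 FPM, Casp2 at 94.0 ± 3.14 against 249 ± 9.96 FPM and Vdac1 at 46.9 ± 3.26 against 137 ± 8.09 FPM. In the death receptor arm 6 of 10 rose and 0 fell, such as Tnfrsf1a, a receptor for TNF (107 ± 8.98 FPM against 25.0 ± 0.974, edgeR adjusted p = 4.95e-09), whereas with total gene counts 3 were higher and 1 lower. Of the 6 cytokine receptors 3 rose and 1 fell. Il7r fell to 6.85 ± 2.05 FPM in IELs, against 63.3 ± 6.29 FPM in IELp, and Il15ra, which presents IL-15, was at 38.4 ± 2.52 FPM against 2.74 ± 0.674 FPM (edgeR adjusted p = 1.85e-07 and 7.56e-09).

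Other family genes came from a list of 17, of which 10 passed the filter in control IELs against control IELp. Of these 4 rose and 3 fell, beside 31.9% and 32.9% of all 14878 genes tested. With total gene counts 2 were higher and 4 lower, beside 3381 and 6435 of all genes. Bmf, a BH3-only gene, was at 7.99, 9.65 and 5.60 FPM in IELs, against 21.8, 23.3 and 23.4 FPM in control IELp (log2 fold change -1.34, SE 0.19, edgeR adjusted p = 8.91e-05). Bcl2l15, a family member with gut expression, was at 9.28, 9.59 and 15.3 FPM in IELs, where the marker Krt19 stood at 0.369, 0.129 and 22.0 FPM, and had 0, 1 and 0 counts in the control IELp libraries. Epcam, a surface protein of epithelium, was at 123, 127 and 189 FPM in the same IEL libraries, against 62.0 ± 4.72 FPM in control IELp (SD, n = 3); the part of epithelial cells in Bcl2l15 was not tested. Bcl2l15 had no counts in KO CD8aa spleen cells, so its level there was at least 202-fold lower than in IELs, reckoned with a floor of 3 counts in the summed spleen libraries.

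KO CD8aa spleen cells and control CD8aa IELs went through the same sort, but both genotype and tissue differed, and these cannot be told apart. Of the 10 genes 2 rose, Bbc3 and Bid, and 4 fell, Bcl2, Bcl2l1, Bcl2a1d and Pmaip1; without IEL replicate 3, with no filter or in the fit of all 12 libraries 5 fell, with Mcl1 added. All 14875 genes gave 29.1% higher, 29.2% lower and 58.2% called in either direction. This comparison shares its control IEL libraries with the one above, so the opposite signs of the 6 genes are not a separate observation. Trp53, which encodes p53, was at 240 ± 6.49 FPM in spleen cells against 100.1 ± 4.20 FPM in IELs (1.14 on the log2 scale, SE 0.06, edgeR adjusted p = 2.31e-07). Foxo1 was at 489 ± 12.8 against 209 ± 20.5 FPM, and both genes encode known activators of Bbc3. In KO IELp Bbc3 averaged 23.7 ± 0.449 FPM, against 16.3 ± 3.65 FPM in KO CD8aa spleen cells. Trp53 was at 248 ± 16.6 FPM and Foxo1 at 396 ± 11.8 FPM in KO IELp. The part of either gene in the level of Bbc3 was not tested. Runx3 was at 158 ± 7.50 FPM in spleen cells against 308 ± 28.7 FPM in IELs (edgeR adjusted p = 1.59e-06). In the death receptor arm 4 of 10 fell and 0 rose; Mlkl was at 0.945 ± 0.515 FPM against 26.4 ± 3.56 FPM (edgeR adjusted p = 4.27e-07). All 6 cytokine receptors changed, 4 of them higher: Il7r stood at 74.0 ± 5.29 FPM in spleen cells against 6.85 ± 2.05 FPM in IELs and Il2rb at 4673 ± 25.7 against 2550 ± 68.4 FPM, while Il15ra was lower, at 12.7 ± 0.929 against 38.4 ± 2.52 FPM.

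KO CD8aa spleen cells were set against KO IELp, again cells of 1 genotype that differ in stage and tissue together. Fewer genes were called than between control IELs and control IELp. Both are called stage differences here, though tissue is part of each. Bcl2l1, Bcl2a1d and Bid rose and Bcl2, Mcl1, Bcl2l11 and Bbc3 fell, so that 3 of 10 were higher and 4 lower, beside 22.6% and 22.4% of 14880 genes and 45% called in either direction. In a fit of all 12 libraries 2 were lower, Bcl2l11 and Bbc3, and 2 to 4 were lower when 1 library was left out. Bcl2a1d rose by 2.35 on the log2 scale (SE 0.52, edgeR adjusted p = 0.00245). It had 65, 23 and 36 counts in the spleen libraries, against 13, 4 and 8 in KO IELp. The B cell and myeloid marker sums were also higher in the spleen libraries, and their part in this rise was not tested. Birc3, an inhibitor of cell death, was at 82.7 ± 1.87 FPM in spleen cells against 51.8 ± 3.96 FPM in KO IELp (edgeR adjusted p = 2.97e-06). Bmf was again lower, at 10.4 ± 3.83 against 27.4 ± 5.87 FPM (edgeR adjusted p = 0.000647). Of 6 cytokine receptors all 6 rose, among them Il4ra, at 388 ± 80.5 FPM against 67.7 ± 10.2 FPM (edgeR adjusted p = 4.27e-09), and in the death receptor arm 5 of 10 rose and 0 fell, Cflar, a brake on caspase-8, included (68.7 ± 6.18 FPM against 43.2 ± 3.71, edgeR adjusted p = 1.92e-05). Nr4a1, a factor of strong antigen receptor signals that can turn BCL2 into a killer, was at 139 ± 5.27 FPM in spleen cells against 544 ± 39.2 FPM in KO IELp, and at 69.3 ± 4.43 FPM in control IELs against 483 ± 37.3 FPM in control IELp (edgeR adjusted p = 4.25e-11 and 7.81e-10).

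**Figure D3:**
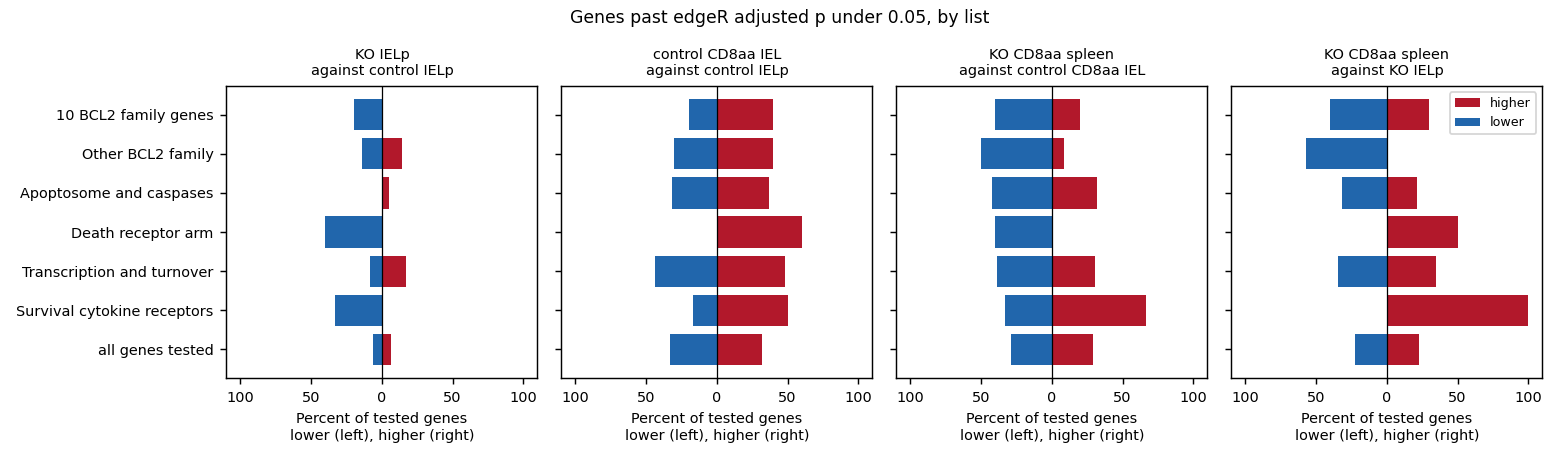
Share of tested genes past the threshold in each list and comparison, in percent, with lower genes to the left and higher genes to the right of 0; the bottom row holds all genes tested. In KO IELp 0% of the 10 family genes were higher and 20% lower, beside 6.48% and 6.58% of all genes.

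The stage difference in KO cells (spleen cells over IELp) was then set against that in control cells (IELs over IELp) by testing the difference of the log2 fold changes in 1 fit of all 12 libraries. The 2 mature groups differ in tissue as well as genotype, so this contrast does not isolate LRF. Bcl2, Mcl1, Bcl2a1d and Pmaip1 had a lower and Bbc3 and Bid a higher change in the KO pair, which makes 4 lower and 2 higher of 10, beside 22.5% and 24.2% of 15757 genes and 46.7% in either direction. The difference was -3.41 for Pmaip1 (SE 0.42, edgeR adjusted p = 5.11e-06), -2.03 for Bcl2a1d (SE 0.57, edgeR adjusted p = 0.00785) and -0.60 for Bcl2 (SE 0.10, edgeR adjusted p = 9.36e-05). For Mcl1 it was -0.26 (SE 0.09, edgeR adjusted p = 0.0337), which was lost in 8 of the 12 fits that left out 1 library and with total gene counts (adjusted p = 0.343). It was 1.30 for Bbc3 (SE 0.24, edgeR adjusted p = 0.000349) and 1.12 for Bid (SE 0.15, edgeR adjusted p = 1.8e-05). For Bcl2l1, which rose in both pairs, the difference was -0.14 (interval -0.57 to 0.29, edgeR adjusted p = 0.638).

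The balance of a protector and a killer transcript within a library was described by ratios of FPM. Because FPM is not per length, only the change of a ratio between groups can be read. The ratio of Bcl2 to Bcl2l11 was 4.07, 4.20 and 4.55 in KO CD8aa spleen cells, 6.08, 5.42 and 5.80 in control IELs, 3.91, 3.99 and 3.53 in KO IELp and 3.61, 3.93 and 4.51 in control IELp. Control IELs lay above all other libraries, and the precursor groups overlapped. The ratio of Bcl2 to Bax averaged 7.89 ± 0.202 in KO CD8aa spleen cells, 12.8 ± 0.729 in control IELs, 8.99 ± 0.224 in KO IELp and 9.03 ± 0.308 in control IELp (SD, n = 3 each). That of Mcl1 to Bcl2l11 overlapped among all 4 groups, at 3.84 to 4.55 in KO CD8aa spleen cells, 3.38 to 5.33 in control IELs, 3.28 to 3.97 in KO IELp and 3.22 to 4.03 in control IELp. Such ratios within a library do not depend on its scaling.

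**Figure D4:**
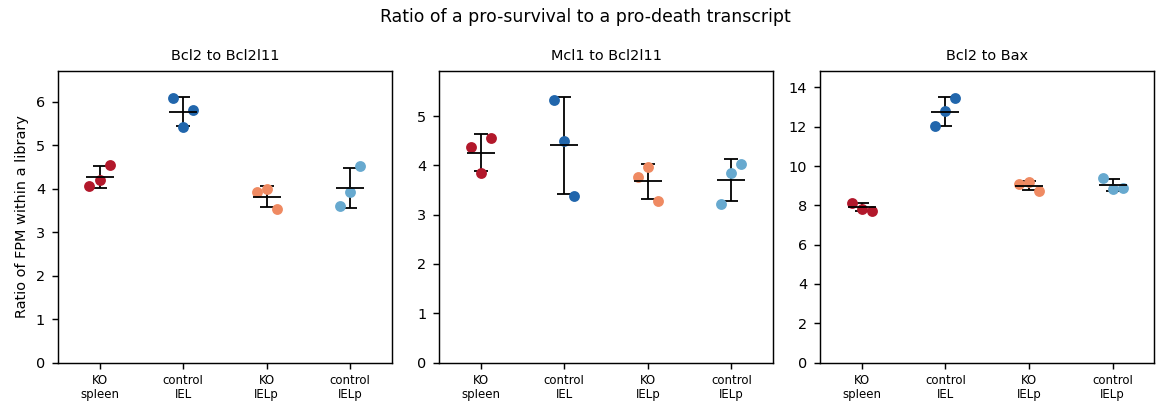
Ratio of the FPM of a pro-survival gene to that of a pro-death gene in each library (vertical axis, no unit, from 0), with mean ± SD of 3. Control IELs are highest for Bcl2 to Bcl2l11 (5.42 to 6.08) and for Bcl2 to Bax.

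Levels of different genes were compared per kilobase of the principal GENCODE transcript, a rough scale since the isoforms in use were not measured. On that scale Mcl1 was the highest of the 10 in every group, at 114 ± 4.43 FPM per kilobase in KO CD8aa spleen cells, 118 ± 13.2 in control IELs, 134 ± 0.676 in KO IELp and 129 ± 5.35 in control IELp. Bcl2 followed in control IELs, KO IELp and control IELp (74.9 ± 8.21, 66.1 ± 1.99 and 66.4 ± 1.31), near Bax in both precursor groups (61.0 ± 3.34 and 61.0 ± 0.907). In KO CD8aa spleen cells Bid (63.3 ± 3.76), Bax (57.1 ± 4.16) and Bcl2 (54.2 ± 2.73) lay close together. In control IELs the level of Bcl2a1d, at 39.8 ± 1.13 FPM per kilobase, exceeded that of Bcl2l1 at 15.1 ± 3.71 and of Bcl2l11 at 18.6 ± 2.25, although many of its reads may not have been counted. Bak1 was the lowest of the 10 in KO CD8aa spleen cells, control IELs, KO IELp and control IELp alike (0.399, 0.413, 0.486 and 0.683 FPM per kilobase).

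Among 9380 genes with at least 10 FPM in their highest group, those whose log2(FPM + 1) followed Bcl2 most closely over the 12 libraries were Tubgcp2 (Pearson r = 0.973), Acly (0.963) and Gpatch11 (0.961). For Bcl2l11 they were Tdrd3 (0.918), Setdb1 (0.914) and Wsb1 (0.911). The libraries fall into 4 groups and share their total counts as denominator, so these values only describe likeness; 61 genes had an r over 0.9 with Bcl2 and 14 with Bcl2l11.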

How the data were processed

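RNA from sorted cells was sequenced and counted per gene by the submitters. Their processing notes list mm10 as the build and bcl2fastq, Trimmomatic, STAR, HTSeq and DESeq2 as tools, with no role or order; the annotation and the use of strand were not stated there. The authors deposited counts for 48663 gene rows, with 5 summary rows kept out of every total here, and a table of FPM, which are CPM of the gene counts: 100% of the deposited FPM values gave back whole reads within 0.001. Alignments without a unique place, which the deposited gene counts leave out, made up 16.7% to 17.0% of all counts in KO CD8aa spleen cells, 13.1% to 13.7% in control IELs, 16.7% to 17.5% in KO IELp and 17.7% to 18.8% in control IELp.

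The deposited counts of the 2 groups in a comparison were fitted with edgeR 4.0.16 (filterByExpr, TMM factors, 2-sided quasi-likelihood test), and p-values were adjusted by Benjamini-Hochberg over all genes tested, with a threshold of 0.05. An SE is the absolute log2 fold change over the square root of F. Alternatives were median-of-ratios size factors, total gene counts, DESeq2 1.42.0, no filter, a replicate block, 1 fit of all 12 libraries, limma 3.58.1 on log2 FPM with 1 or 0.1 added, and leaving out each library. The fit was tested on simulated data. The 10 genes, the lists and the tests were chosen with earlier results of these data known. From each list up to 4 genes with the smallest adjusted p and at least 5 FPM in the higher group could be named, and a part of them is printed; Mlkl in KO IELp and Rel were named after their values were seen. Markers are from fixed lists. Whether replicates are from different mice is not said in the labels. The p-values therefore speak to the spread among these libraries alone, which may be technical.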

Additional observations from a re-analysis of the deposited data

Results flagged for a closer look

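For 6 of the 10 genes the stage difference itself differed between the KO pair (KO CD8aa spleen cells over KO IELp) and the control pair (control IELs over control IELp), by edgeR's test of the difference at an adjusted p under 0.05. Among all 15757 genes tested, 46.7% passed the same test. The difference of log2 fold changes was -0.60 for Bcl2, -0.26 for Mcl1, -2.03 for Bcl2a1d and -3.41 for Pmaip1, and 1.30 for Bbc3 and 1.12 for Bid. For Mcl1 it was lost in 8 of the 12 fits that left out 1 library (edgeR adjusted p of 0.0552 to 0.097), and for Bcl2a1d in 1 of 12, that without KO IELp replicate 1 (0.0934). Genotype and tissue of the mature cells cannot be told apart in these values.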

How the results depend on the processing

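Across the 10 genes and 5 contrasts 680 of 750 recomputed values kept their direction and their side of the threshold. Total gene counts without TMM moved the median of all genes by -0.24 in control IELs against control IELp, 0.13 in KO CD8aa spleen cells against control IELs and -0.11 in KO CD8aa spleen cells against KO IELp on the log2 scale, and the share of calls that were higher fell to 34.4%, against 49.2% with TMM, in the first of these, was 59.5% against 49.9% in the second and 35.9% against 50.3% in the third, and for the difference of the stage changes 63.6% against 51.8%. With total gene counts or either limma setting 4 members were lower and 3 higher in control IELs against control IELp. Beside these, total gene counts gave 6435 lower and 3381 higher of all 14878 genes. In 1 fit of all 12 libraries 2 members were lower in KO CD8aa spleen cells against KO IELp. Leaving out 1 library gave 2 to 4 lower members there, 0 to 2 in KO against control IELp and 2 to 4 for the difference of stage changes, and 591 to 871 higher and 635 to 939 lower genes in KO against control IELp. Signs turned only where no call was made. With total gene counts and the 2 limma settings, Bax in KO CD8aa spleen cells against KO IELp was -0.10, -0.09 and -0.10 (and -0.00 with no filter), Bax in KO against control IELp was -0.00, Bcl2 there -0.01, the difference of stage changes of Bcl2l1 0.01, 0.03 and 0.04, and Mcl1 in control IELs against control IELp -0.12. Without 1 library, Bak1 ran from -0.36 to 0.02 in KO CD8aa spleen cells against KO IELp and from -0.33 to 0.01 against control IELs, Bax from -0.02 to 0.08 in KO CD8aa spleen cells against KO IELp and from -0.02 to 0.06 in KO against control IELp, Bcl2 from -0.01 to 0.04, Bcl2l11 from -0.00 to 0.18 and Bid from -0.00 to 0.14 in KO against control IELp, Bcl2l1 from -0.25 to 0.09 for the difference, and Pmaip1 from -0.39 to 0.26 in KO CD8aa spleen cells against KO IELp. The cause of these changes was not tested. Whether libraries of the same replicate number belong together is not said in the labels. Correlations of their deviations ran from -0.0264 to 0.0647, and from 0.0221 to 0.0647 within a genotype. Such small values cannot decide whether the libraries are paired. With a replicate block 760 genes were higher and 781 lower in KO against control IELp, beside 948 and 963 without. No call on the 10 genes changed with that block. Depth limits Bak1 and, in the precursors, Bcl2a1d, which had 4 to 43 counts there.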
